A study of Homo sapiens with 15 samples.

Results

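The genes described here are 39 synaptic and neuronal genes, many of them known targets of the repressor REST, in K-562 cells exposed to martinostat. They were taken by symbol from a given list, out of 60649 genes in the count table. Of the 39, 37 were among the 23711 genes with enough counts to be tested. The list was drawn up with earlier results of these data known, so its shares beside those of other genes are descriptions. The question was which of them are switched on in a cell line of another lineage, and at which dose. K-562 is an established human line from a chronic myeloid leukaemia with the BCR-ABL1 fusion and erythroid features. Martinostat inhibits histone deacetylases (HDACs), enzymes that remove acetyl groups from histones and so tend to close chromatin. The untreated group was compared with groups kept for 24 h in 0.15, 0.25, 0.5 or 1 µM of the drug, with 3 poly(A) RNA libraries in each of the 5 groups. Every group used this 1 cell line. The labels number the libraries as biological replicates without saying which came from separate cultures, so p-values measure the spread between these samples.

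Neurons release transmitter when SNARE proteins on a synaptic vesicle and on the plasma membrane zip together at the active zone, and they release peptides from larger dense core granules filled with granins. Most other cell types keep these genes silent. REST binds a sequence called RE1 near many of them and brings in corepressors that contain HDAC1, HDAC2, the demethylase KDM1A and the scaffold RCOR1. HDAC inhibitors are known to release such genes in non-neuronal cells.

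RE1 consists of a left and a right block. The left block was searched here as TCAGNACC and the right block as GGNCAG, 2 bases apart, on both strands, within 5000 bases of each start site. Of the 39 genes, 25 had a RefSeq promoter entry (GRCh38.p14), with 32 start sites in all. Both blocks matched without a mismatch near 6 of the 32 (18.8%), against 240 of 21598 protein-coding start sites (1.11%). These 6 belong to 5 genes, since the same match lies near both start sites of SYT5. With at most 1 of the 12 fixed letters different, 12 of the 32 start sites (37.5%) had a match, against 11.0%. The list was drawn up largely from REST-type genes, so these higher shares are not an independent result. The exact matches belonged to SYN1, CHGA, INA, SYT5 and SYT4, and they are shown with 3 of the matches that have 1 other letter because their genes behaved differently under the drug; the capitals mark the blocks as read on the strand of the match.
SYN1: tTCAGCACCgcGGACAGtgcc
CHGA: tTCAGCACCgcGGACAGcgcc
INA: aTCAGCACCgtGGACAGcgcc
SYT5: aTCAGCACCcgGGACAGcgcc
SYT4: tTCAGCACCtcGGACAGaaca
SYP (1 letter different): tCCAGCACCgtGGACAGagcc
VGF (1 letter different): tTCAGCACGctGGACAGcgcc
STMN3 (1 letter different): gCCAGCACCatGGCCAGcacc
In hg38 the SYN1 match lay at chrX:47620070-47620090 on the minus strand, 223 bases upstream of the start site and outside the gene. That of CHGA lay at chr14:92923523-92923543 on the plus strand in an intron, and that of INA at chr10:103279008-103279028 on the minus strand in an intron. Those of SYT5 (chr19:55180200-55180220, minus strand) and SYT4 (chr18:43277293-43277313, minus strand) lay in untranslated exon sequence by GENCODE 44. The SYP match lay in an intron at chrX:49200122-49200142 on the minus strand. The VGF match shown spanned the start site itself at chr7:101165559-101165579 on the plus strand, and the STMN3 match lay in coding sequence of some transcripts at chr20:63653334-63653354 on the minus strand. A match is a description of letters and not a measured binding site. The genes with matches ranged from SYT4, hardly detected at any dose, through SYN1 and CHGA, which rose, to STMN3, which fell.

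**Figure D1:**
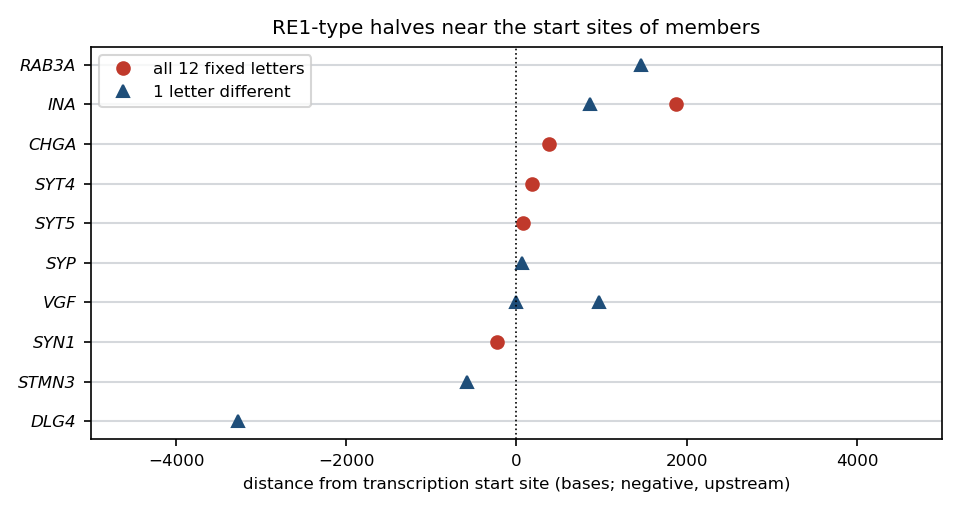
Distance of each RE1-type match from the start site of its gene (x axis, bases, negative upstream; y axis, genes); circles mark matches of all 12 fixed letters and triangles matches with 1 letter different. The exact matches of CHGA, SYN1, SYT4 and SYT5 lie within 383 bases of the start site and that of INA lies 1880 bases downstream.

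The 250 bases before the start sites of SNCB and VGF are shown as well, because SNCB reached the highest level of the 9 members without an untreated count and VGF the member with the highest level of all. In SNCB (chr5:176630535-176630784, minus strand, RefSeq, GRCh38.p14) the capitals mark CpG dinucleotides, of which there are 26. In VGF (chr7:101165570-101165819, minus strand) they mark TGACGTCA, the consensus of the cyclic AMP response element, a motif chosen after the sequence was read.
SNCB: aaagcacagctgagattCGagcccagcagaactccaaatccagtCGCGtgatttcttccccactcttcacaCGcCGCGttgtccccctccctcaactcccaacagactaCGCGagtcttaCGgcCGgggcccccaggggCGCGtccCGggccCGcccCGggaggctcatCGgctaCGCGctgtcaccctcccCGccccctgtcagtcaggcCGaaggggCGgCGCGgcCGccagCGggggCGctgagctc
VGF: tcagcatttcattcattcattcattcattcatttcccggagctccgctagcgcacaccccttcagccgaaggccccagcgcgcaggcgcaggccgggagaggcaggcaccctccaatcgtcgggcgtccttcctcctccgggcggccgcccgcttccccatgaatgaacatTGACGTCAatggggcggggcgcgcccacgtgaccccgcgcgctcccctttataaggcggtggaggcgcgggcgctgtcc
The same 8 letters, which read alike on both strands, were found in 4 of the 32 member promoters (12.5%; CHGA, DLG4, SYN1 and VGF), against 495 of 21598 (2.29%). VGF is among the 4 because the motif was picked from its sequence, so this higher share is not an independent result. Member promoters had a median GC content of 69.7%, against 62.3% over all promoters, while the median CpG observed over expected ratio was 0.751 against 0.742. None of the 32 had the exact letters TATAAA about 20 to 40 bases upstream, against 3.12% of all promoters. With only 32 promoters, several of them of the same gene, no difference can be read from this. Other TATA-type letters, such as the tttataagg in the VGF bases shown, were not searched. SNAP25, SYT7, STMN2, STMN4, SCG2, CHGB, CPLX1, NCAM1, NRXN2, SHANK1, NEFL, NEFM, NEFH and MAPT had no entry.

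Library totals ran from 23755510 to 32805574 counts. Levels are in CPM (counts divided by the library size in units of 1e+06), with library sizes adjusted by TMM, the trimmed mean of log ratios, with factors of 0.785 to 0.828 in the untreated and 0.95 to 1.28 in the treated libraries. On this scale the median over all genes of the log2 fold change against untreated cells was 0.28, 0.32, 0.34 and 0.32 in dose order, and changes are to be read relative to it. By library totals alone it was 0.64, 0.84, 0.72 and 0.67, and the higher share of all called genes went from 62.2%, 60.1%, 58.8% and 58.5% to 81.8%, 79.2%, 70.1% and 69.3%. Replicate 3 at 0.25 µM and replicate 3 at 0.5 µM stood apart, with TMM factors of 1.28 and 1.22 and positions of 70.1 and 75.4 on principal component 3 (4.47% of the variance), where the other 13 libraries lay at 16.0 or lower. At 0.25 µM 21 of the 39 members had their lowest value of the dose in this library and 9 their highest. At 0.5 µM these numbers were 21 and 10. The same shares over all genes were not computed. In bulk RNA, fewer cells with a transcript and less transcript per cell cannot be told apart.

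At the lowest dose most of these genes were already up. Against untreated cells, the quasi-likelihood test of edgeR (Benjamini-Hochberg adjusted p under 0.05) called 31 of the 39 members higher and 3 lower at 0.15 µM, beside 31.9% of all tested genes higher and 19.4% lower. At 0.25 µM it called 30 higher and 3 lower (all genes, 37.4% and 24.8%), at 0.5 µM 29 higher and 2 lower (39.4% and 27.6%) and at 1 µM 29 higher and 2 lower (38.8% and 27.5%). Leaving out both libraries that stood apart gave 31, 31, 30 and 30 higher members. The 4 comparisons share the untreated libraries. The median log2 fold change of the 37 tested members was 3.36, 3.30, 4.09 and 4.08 in dose order. For 7 of these 37, the untreated libraries held no count at all and the fitted value depends on the prior count, so with these set at their lower bound the medians were 2.56, 3.30, 3.34 and 4.08. These 7 could pass the filter on low counts through treated libraries alone and so had to differ. The filter asked for 0.357 CPM of library totals in 3 libraries, a level that the untreated libraries did not all reach for 16 of the 37 tested members, among them all 15 tested members with an untreated mean under 0.5 CPM. Calls and folds of these 16 are given as descriptions, without p-values. SYT4 and NEFL did not pass it.

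The members differed widely in their untreated level. A mean under 0.5 CPM was found for 17 (called silent here), 0.5 to 10 CPM for 14 and 10 CPM or more for 8 (SYP, SYT5, STMN3, VAMP2, RIMS3, DLG4, BSN and NEFH). Higher calls at all 4 doses were made for 12 of the 17, 13 of the 14 and 3 of the 8. The 15 tested members of the silent class passed the filter only with treated libraries, so their higher calls were partly fixed by it. Shares over all genes of each class were not computed, so no link with the untreated level is drawn. In all, 28 members were higher at every dose, and STMN3 and NEFH were lower at every dose, beside 24.6% of all tested genes higher and 15.1% lower at every dose. With all libraries, none was called in opposite directions at different doses. Without both libraries that stood apart, DLG4 was called higher at 0.15 and 0.25 µM and lower at 0.5 µM. At 1 µM the 3 libraries lay above all 3 untreated libraries for 31 members and below them for 2. The 31 include SYT4 and NEFL, which were not tested and had no untreated count. The share of all genes for which this held was not computed, so these counts are descriptions only.

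**Figure D2:**
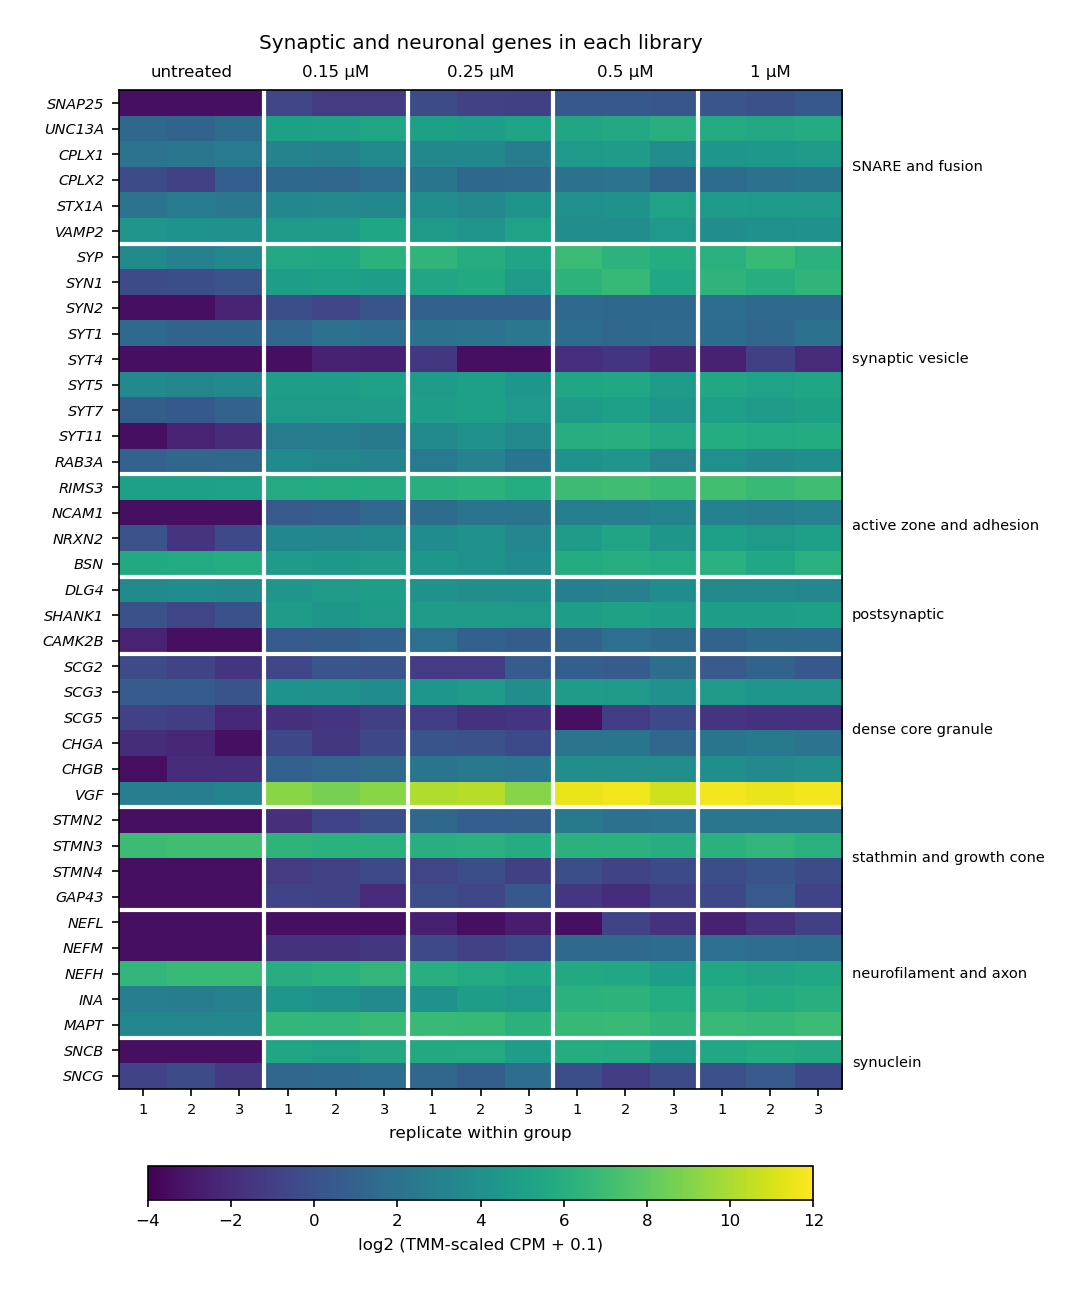
Level of the 39 genes (rows, grouped by role) in the 15 libraries (columns, grouped by dose, with the replicate number below), as log2 of TMM-scaled CPM plus 0.1 (colour). Dark rows in the untreated columns turn lighter from 0.15 µM, VGF holds the lightest cells at 0.5 and 1 µM, and STMN3 and NEFH are darker in the treated columns.

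A silent gene was counted as switched on at a dose when it was called higher with a log2 fold change over 1, its mean reached 1 CPM and all 3 libraries lay above all untreated ones. At 0.15 µM 6 of the 17 silent members met this (35.3%): SYT11, CHGB, NCAM1, CAMK2B, SNCB and SNCG. SYN2 and STMN2 joined at 0.25 µM, which made 8 (47.1%). SNAP25, SCG2, CHGA and NEFM joined at 0.5 µM and SNCG dropped out, which left 11 (64.7%), and the same 11 met it at 1 µM (64.7%). Among 7829 protein-coding genes that were silent by the same limit, 15.7%, 20.9%, 22.0% and 21.8% were switched on in dose order. SYT4, STMN4, SCG5, GAP43 and NEFL were switched on at no dose. Just inside the limits lay SNCG and SCG2, with untreated means of 0.499 and 0.49 CPM, and SNAP25 with 1.05 CPM at 1 µM. Just outside lay NRXN2 with an untreated mean of 0.612 CPM, and GAP43 and STMN4, whose highest dose means were 0.87 and 0.826 CPM.

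The fusion machinery was represented by 6 genes. SNAP25, the plasma membrane SNARE that gives botulinum toxin its target, was at 0 CPM in the 3 untreated libraries, at 0.562, 0.353 and 0.344 CPM at 0.15 µM and at 0.711, 0.465 and 0.4 CPM at 0.25 µM. It was at 1.19, 1.25 and 1.09 CPM at 0.5 µM and at 1.06, 0.862 and 1.22 CPM at 1 µM. Each treated library thus held SNAP25 counts, the libraries at both high doses lay above all those at the low doses, and the level at 1 µM was at least 26.5-fold higher than a floor of 3 counts over the untreated group. VAMP2, the vesicle SNARE that many cell types use, was at 20.3, 17.6 and 18.5 CPM in untreated cells, at 23.8, 28.4 and 42.6 CPM at 0.15 µM and at 14.3, 16.1 and 17.7 CPM at 1 µM. Its libraries at 0.15 µM lay above the untreated ones and those at 1 µM overlapped them. The log2 fold change of VAMP2 was 0.75 ± 0.25 (SE) at 0.15 µM (edgeR adjusted p = 0.0197), a call that was lost without untreated replicate 2 (0.71), untreated replicate 3 (0.74) or replicate 3 at 0.15 µM (0.47). At 1 µM VAMP2 was 0.98 log2 units lower than at 0.15 µM (adjusted p = 0.0044), and 11.9% of its exon bases lie under another gene of the same strand. The other 4 genes, the priming factor UNC13A, the complexins CPLX1 and CPLX2, which clamp and trigger fusion, and the plasma membrane SNARE STX1A, were higher at all doses, with log2 fold changes at 1 µM from 2.03 for CPLX2 to 4.42 for UNC13A. STX1A was at 19.4 and 37.9 CPM in replicate 3 at 0.25 and 0.5 µM and at 11.5 to 17.8 CPM in the other libraries of these doses.

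Among 9 genes of the synaptic vesicle, of which SYT4 was not tested, SYT11 had the largest log2 fold change at 1 µM. SYT11 (ENSG00000132718.9, chr1:155859567-155885199, plus strand), a synaptotagmin that does not bind calcium, was at 0, 0.0772 and 0.156 CPM in untreated cells. It reached 5.83, 6.59 and 5.43 CPM at 0.15 µM, 12.4, 16.9 and 11.6 CPM at 0.25 µM, 62.3, 66.7 and 49.3 CPM at 0.5 µM and 61.1, 56.0 and 58.4 CPM at 1 µM. The libraries of consecutive doses did not overlap up to 0.5 µM, while 0.5 and 1 µM overlapped. For SYT11 the log2 fold change was 6.16 ± 0.36 (SE) at 0.15 µM and 9.46 ± 0.34 at 1 µM.

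SYN2, a synapsin that tethers vesicles to actin, had 2 counts over the untreated libraries. It rose to 0.808, 0.529 and 1.03 CPM at 0.15 µM, 1.83, 1.82 and 1.83 CPM at 0.25 µM, 2.65, 2.59 and 2.47 CPM at 0.5 µM and 3.33, 2.76 and 2.65 CPM at 1 µM. The ratio of the 1 µM to the untreated level was 111, with a counting interval of 30.3 to 918. Its libraries at 0.15 µM lay below all libraries of the higher doses. The related SYN1, chosen for values here after they were seen, went from 0.827 ± 0.142 CPM (SD, n = 3) to 31.7 ± 2.31 CPM at 0.15 µM and 78.1 ± 14.6 CPM at 1 µM, a log2 fold change of 6.55 ± 0.35 (SE). Both synapsins thus rose further after the lowest dose, and both were called higher at 1 than at 0.15 µM. For SYN1, 24.9% of the exon bases lie under another gene of the same strand.

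SYP, the vesicle membrane protein synaptophysin, was detected before treatment, at 12.4, 7.95 and 11.2 CPM, and reached 50.9, 49.0 and 73.3 CPM at 0.15 µM and 71.9, 109 and 71.5 CPM at 1 µM. SYT5, a calcium sensor of granule release, went from 12.7, 9.92 and 11.4 CPM to 30.2, 31.2 and 36.2 CPM at 0.15 µM and 46.4, 38.6 and 44.7 CPM at 1 µM. For both genes all treated libraries lay above the untreated ones. The calcium sensor SYT7 and the vesicle GTPase RAB3A were also higher at all doses, with log2 fold changes at 1 µM of 4.31 and 2.74. SYT1, the fast calcium sensor of neurons, was called at 0.25 µM alone (log2 fold change 0.91, edgeR adjusted p = 0.00594), with means of 2.28 CPM untreated and 4.28 CPM at 0.25 µM. SYT4, with an exact RE1 match, stayed at 0.414 CPM or lower in every library.

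At the active zone and in adhesion, NCAM1 was switched on from zero. NCAM1 (CD56), an adhesion molecule of neurons and natural killer cells, had no count in untreated cells. Its levels were 1.26, 1.66 and 2.65 CPM at 0.15 µM, 3.08, 4.32 and 4.53 CPM at 0.25 µM, 7.24, 7.35 and 9.34 CPM at 0.5 µM and 8.08, 7.07 and 8.46 CPM at 1 µM. The groups did not overlap up to 0.5 µM, and at 1 µM NCAM1 was at least 199-fold higher than the untreated floor. NRXN2, a presynaptic neurexin, had an untreated mean of 0.612 CPM and was higher at all doses, with a log2 fold change of 5.65 ± 0.35 (SE) at 1 µM. RIMS3, a small active zone protein, rose from 33, 32.2 and 34.8 CPM to 56.1, 56.4 and 58.4 CPM at 0.15 µM and to 144, 114 and 134 CPM at 1 µM, without overlap between these groups.

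BSN, which encodes the active zone scaffold bassoon, moved the other way at the low doses. Its untreated libraries were at 53.7, 55.3 and 60.0 CPM. At 0.15 µM BSN was at 23.6, 23 and 23.8 CPM, at 0.25 µM at 21.0, 18.9 and 13.3 CPM, at 0.5 µM at 56.9, 63.6 and 57.7 CPM and at 1 µM at 71.7, 48.4 and 70.9 CPM. All 6 low-dose libraries lay below the untreated ones and all 6 high-dose libraries lay above the low-dose ones. BSN had a log2 fold change of -1.26 ± 0.17 (SE) at 0.15 µM and -1.67 ± 0.17 at 0.25 µM (edgeR adjusted p = 5.8e-06 and 1.25e-07). At 0.5 and 1 µM it was 0.08 and 0.18 and was not called, although library totals gave 0.46 and 0.53, both called.

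Of 3 postsynaptic genes, SHANK1 and CAMK2B were higher at all doses. CAMK2B, a kinase subunit of synaptic plasticity, had 2 counts over the untreated libraries and was at 1.33, 1.55 and 1.96 CPM at 0.15 µM. At 1 µM it was at 2.13, 2.79 and 2.61 CPM, with a ratio to untreated of 95.5 (counting interval 26.1 to 794), and it was not called between 0.15 and 1 µM. In CAMK2B, a gene on the other strand covers 20% of the exon bases, and the strand setting of the counting is not given in the sources used here. SHANK1, a scaffold of excitatory synapses, rose from 0.792 ± 0.219 CPM (SD, n = 3) to 26.0 ± 3.45 CPM at 0.15 µM and 32.4 ± 1.87 CPM at 1 µM.

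DLG4, which encodes the scaffold PSD-95, followed neither. It was at 12.1, 13.7 and 11.8 CPM in untreated cells, at 20.5, 25.1 and 29.6 CPM at 0.15 µM, at 18.5, 14.7 and 15.8 CPM at 0.25 µM, at 7.32, 7.77 and 13.4 CPM at 0.5 µM and at 12.2, 11.6 and 10.6 CPM at 1 µM. The libraries at 0.15 µM lay above all others. Its log2 fold change was 1.00 ± 0.21 (SE) at 0.15 µM (edgeR adjusted p = 0.000562), and DLG4 was 1.13 log2 units lower at 1 than at 0.15 µM (adjusted p = 0.000222). Without replicate 3 at 0.25 and at 0.5 µM DLG4 was also called higher at 0.25 µM (0.43) and lower at 0.5 µM (-0.69).

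The dense core granule genes held the largest level. VGF, a secreted neuropeptide precursor, was chosen for values after they were seen (ENSG00000128564.7, chr7:101162509-101165569, minus strand). It was at 7.23, 7.14 and 9.03 CPM in untreated cells, at 570, 427 and 579 CPM at 0.15 µM and at 1070, 1220 and 555 CPM at 0.25 µM. At 0.5 µM it was at 2970, 3270 and 1830 CPM and at 1 µM at 3340, 2990 and 3440 CPM. All treated libraries lay far above the untreated ones, and replicate 3 at 0.25 and at 0.5 µM was the lowest of its dose. The log2 fold change was 6.07 ± 0.32 (SE) at 0.15 µM and 8.70 ± 0.35 at 1 µM (edgeR adjusted p = 2.47e-11 and 3.33e-13). VGF ranked between 9483 and 9953 by counts among all genes in the untreated libraries and between 8 and 15 at 1 µM, where it took 0.305% to 0.353% of all counts. The members summed to 412 to 449 CPM in untreated libraries and to 4060 to 4600 CPM at 1 µM. Without VGF the sums were 405 to 440 CPM and 1070 to 1150 CPM.

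The chromogranins, which drive granule formation, were silent before treatment. CHGB was at 0, 0.154 and 0.156 CPM in untreated cells, at 1.86, 2.26 and 2.78 CPM at 0.15 µM, at 4.54, 5.47 and 4.70 CPM at 0.25 µM, at 14.8, 14.6 and 15.1 CPM at 0.5 µM and at 15.5, 12.3 and 14.9 CPM at 1 µM. CHGA was at 0.163, 0.116 and 0 CPM in untreated cells, at 0.562, 0.282 and 0.584 CPM at 0.15 µM and at 1.02, 0.858 and 0.65 CPM at 0.25 µM. At 0.5 µM CHGA was at 4.28, 4.6 and 2.31 CPM and at 1 µM at 4.64, 5.38 and 4.08 CPM. For both, the libraries of consecutive doses up to 0.5 µM did not overlap, and the log2 fold changes at 1 µM were 7.02 ± 0.38 (SE) for CHGB and 5.60 ± 0.54 for CHGA.

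SCG2, or secretogranin II, was at 0.735, 0.502 and 0.235 CPM in untreated cells, at 0.562, 1.09 and 0.962 CPM at 0.15 µM and at 0.339, 0.357 and 1.48 CPM at 0.25 µM. It was at 1.59, 1.5 and 3.37 CPM at 0.5 µM and at 1.31, 2.00 and 1.25 CPM at 1 µM. The low-dose libraries overlapped the untreated ones and the high-dose libraries did not. The log2 fold change was 2.14 ± 0.56 (SE) at 0.5 µM and 1.63 ± 0.56 at 1 µM, and the call at 1 µM was lost without untreated replicate 3 or replicate 2 at 1 µM. SCG3, which anchors granins to the granule membrane, was higher at all doses, with 4.08 at 1 µM on the log2 scale. SCG5, the 7B2 chaperone of a prohormone convertase, stayed at 0.625 CPM or lower in every library and was called at no dose, and 51.4% of its exon bases lie under another gene of the same strand.

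The stathmins bind tubulin, and the neuronal members act at the growth cone. STMN2 had no count in untreated cells. It was at 0.176, 0.494 and 0.791 CPM at 0.15 µM, at 2.54, 1.64 and 1.70 CPM at 0.25 µM, at 5.43, 3.93 and 4.10 CPM at 0.5 µM and at 4.82, 4.80 and 4.77 CPM at 1 µM. Its groups did not overlap up to 0.5 µM, and at 1 µM it was at least 121-fold higher than the untreated floor. STMN3 was the highest of the stathmins among the 39 members before treatment, at 126, 136 and 134 CPM. It fell to 84.4, 75.1 and 70.5 CPM at 0.15 µM and was at 74.3, 90.7 and 69.9 CPM at 1 µM, with all treated libraries below the untreated ones. STMN3 had a log2 fold change of -0.78 ± 0.14 (SE) at 0.15 µM and -0.75 ± 0.14 at 1 µM (edgeR adjusted p = 0.000117 and 0.000101). STMN4 and GAP43, a growth cone protein of axons, had no count in untreated cells and were called higher at all doses, but their means stayed under 1 CPM.

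Neurofilaments and tau build the axonal cytoskeleton. NEFM had no count in untreated cells and was at 0.211, 0.212 and 0.275 CPM at 0.15 µM, at 0.609, 0.465 and 0.65 CPM at 0.25 µM, at 2.82, 2.76 and 3.01 CPM at 0.5 µM and at 3.47, 3.24 and 3.07 CPM at 1 µM. Each dose lay above the one before it without overlap, and at 1 µM NEFM was at least 82.6-fold higher than the floor. A gene on the other strand covers 26.4% of the NEFM exon bases. NEFL, the light chain, reached 0.501 CPM at most in any library.

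NEFH, the heavy chain, was expressed before treatment and fell. It was at 94.4, 109 and 114 CPM in untreated cells, at 61.4, 73.3 and 91.4 CPM at 0.15 µM and at 64.5, 54.3 and 44.6 CPM at 0.25 µM. At 0.5 µM it was at 52.4, 48.3 and 31.0 CPM and at 1 µM at 47.6, 40.8 and 47.0 CPM. All treated libraries lay below the untreated ones, with a log2 fold change that was -0.49 ± 0.19 (SE) at 0.15 µM and -1.23 ± 0.19 at 1 µM (edgeR adjusted p = 0.0396 and 1.74e-05). The call at 0.15 µM did not hold with library totals (-0.13), with TMM computed on genes of 10 CPM or more (-0.23), with a minimum mean of 1 CPM (-0.42), with a replicate block (-0.48), or without any 1 of 6 libraries: untreated replicate 2 or 3, replicate 1 or 2 at 0.15 µM, and replicate 1 or 3 at 1 µM.

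MAPT, which encodes tau, and INA, the neuronal intermediate filament alpha-internexin, were chosen for values after they were seen. MAPT was at 10.0, 9.57 and 10.4 CPM in untreated cells, at 98.5, 93.5 and 116 CPM at 0.15 µM and at 114, 101 and 121 CPM at 1 µM. INA was at 6.99, 6.68 and 8.21 CPM, at 20.7, 18.9 and 12.3 CPM and at 65.8, 57.6 and 67.6 CPM in the same groups. The MAPT groups at 0.15 and 1 µM overlapped, with a difference of 0.12 ± 0.16 (SE) on the log2 scale (edgeR adjusted p = 0.562), while those of INA did not (1.88 ± 0.20, adjusted p = 5.13e-07).

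The synucleins are small presynaptic proteins, and the pair measured here parted at the high doses. SNCB (ENSG00000074317.11, chr5:176620082-176630556, minus strand), beta-synuclein, had no count in the 3 untreated libraries. It was at 42.2, 36.4 and 50.5 CPM at 0.15 µM, at 53.2, 53.8 and 29.6 CPM at 0.25 µM, at 61.1, 57.5 and 28.9 CPM at 0.5 µM and at 48.7, 56.3 and 50.4 CPM at 1 µM. The treated groups overlapped one another, and SNCB was at least 1090-fold above the untreated floor at 0.15 µM and at least 1310-fold at 1 µM. SNCG, gamma-synuclein, was at 0.49, 0.695 and 0.313 CPM in untreated cells, at 2.28, 2.61 and 3.13 CPM at 0.15 µM and at 2.34, 1.72 and 3.33 CPM at 0.25 µM. At 0.5 µM SNCG was at 0.794, 0.376 and 0.706 CPM and at 1 µM at 0.851, 1.28 and 0.627 CPM, overlapping the untreated libraries. SNCG was 1.54 log2 units lower at 1 than at 0.15 µM, whereas SNCB differed between these doses by 0.27 ± 0.27 (SE) and was not called.

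**Figure D3:**
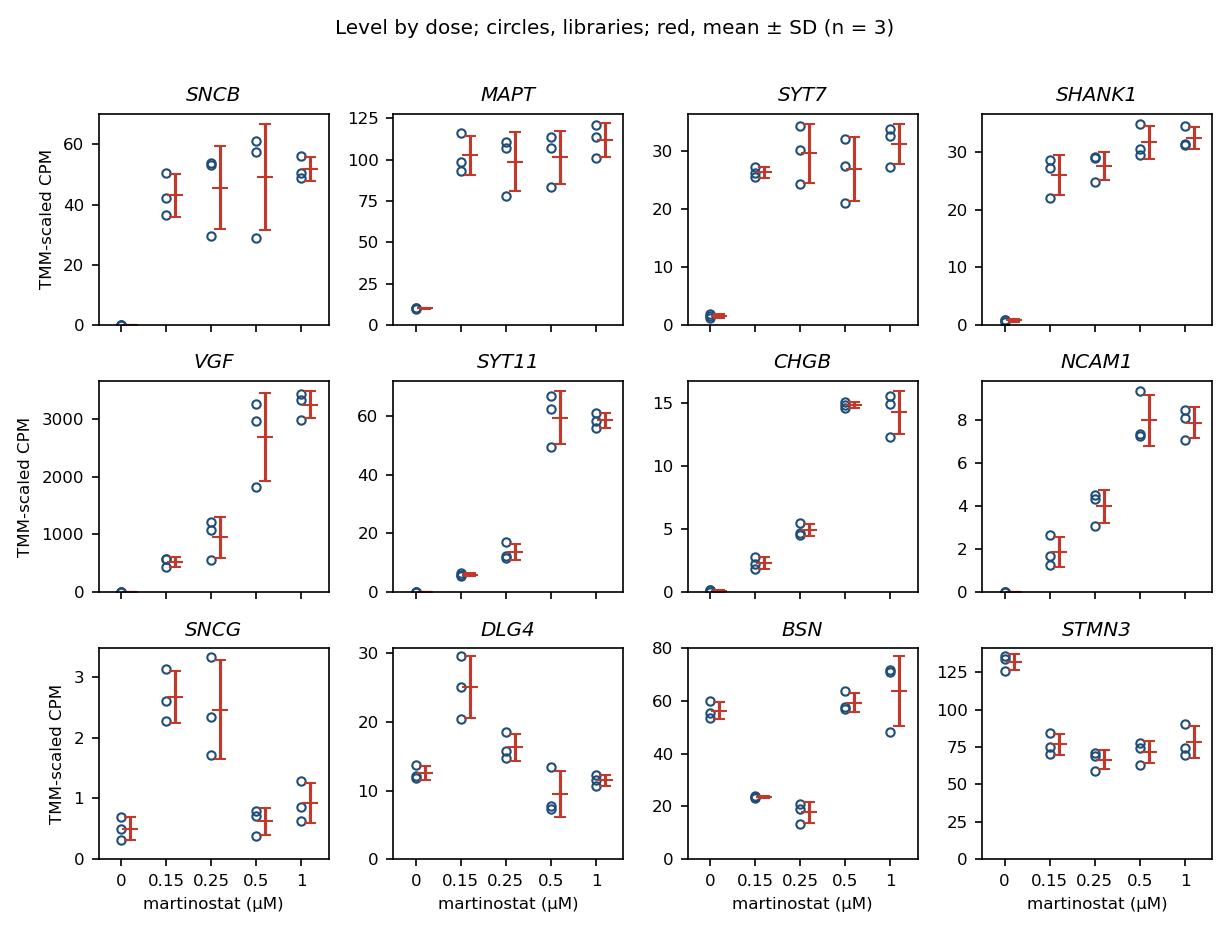
TMM-scaled CPM (y axis, from 0) of 12 members by martinostat dose (x axis, µM); circles are libraries and red bars the mean ± SD of 3. SNCB, MAPT, SYT7 and SHANK1 stand near their 1 µM level from 0.15 µM, VGF, SYT11, CHGB and NCAM1 climb to 0.5 µM, SNCG and DLG4 are highest at the low doses, BSN is lowest there, and STMN3 is lower at all doses.

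Comparing doses with each other placed the steps. From 0.15 to 0.25 µM 7 members were called higher (SYN2, SYT11, STMN2, CHGB, VGF, NCAM1 and NEFM) and 0 lower by edgeR, beside 4.96% and 7.32% of all genes, and DESeq2 also called 7 and 0; 13 members had an unadjusted p under 0.05. Of all genes called at this step 40.4% were higher, against 56.8% with RLE factors, 61.5% with library totals and 64.7% with TMM computed on genes of 10 CPM or more. Calls of higher members numbered 2 when replicate 1 of the 0.15 µM group was left out, 3 when its replicate 2 was, and 4 when replicate 2 or 3 of the 0.25 µM group was. From 0.25 to 0.5 µM 18 were higher and 3 (GAP43, DLG4 and SNCG) lower, beside 14.4% and 16.0%, and the higher share of all called genes was 47.3%, or 34.8% with library totals. Same-numbered libraries deviated together between these 2 doses, but replicate 3 stood apart at both, so this does not show pairing by number. A fit of these libraries with a replicate block called 20 higher and 6 lower. Between 0.5 and 1 µM edgeR and DESeq2 each called 0 members higher and 0 lower, beside 0.0% and 0.0% of all genes, and 1 member (GAP43) had an unadjusted p under 0.05 in each. From 0.15 to 1 µM 17 were higher and 4 (VAMP2, DLG4, SNCG and NEFH) lower, beside 21.5% and 23.1%.

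The 28 members that were higher at every dose fell into 16 that were called higher at 1 than at 0.15 µM and 12 that were not called between these doses. The same split was not computed for all genes higher at every dose, so these counts are descriptions only. At 0.15 µM the first 16 were at 7.12% (NEFM) to 67.8% (UNC13A) of their 1 µM mean, and the other 12 at 44.5% (GAP43) to 92.0% (MAPT). SYT11 stood at 10.2%, CHGA at 10.1%, STMN2 at 10.1%, VGF at 16.1% and CHGB at 16.2%. SHANK1 stood at 80.2%, SNCB at 83.0% and SYT7 at 84.0%. The granule genes were split, with SCG3 at 73.9% among those not called between the doses.

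**Figure D4:**
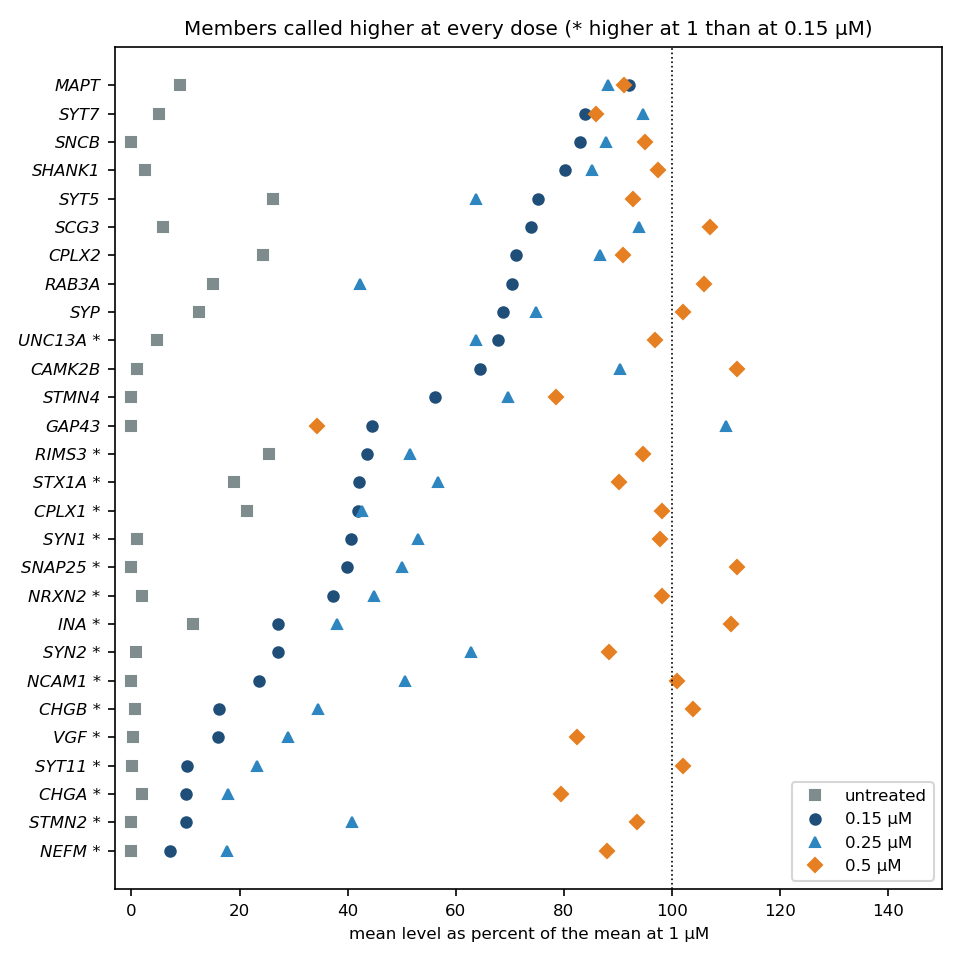
Mean level of the 28 members higher at every dose, as percent of the mean at 1 µM (x axis), for untreated cells (squares), 0.15 µM (circles), 0.25 µM (triangles) and 0.5 µM (diamonds), each a mean of 3 libraries. Genes are ordered by the value at 0.15 µM, from 7.12% for NEFM to 92.0% for MAPT, and stars mark the genes called higher at 1 than at 0.15 µM, of which UNC13A (67.8%) stands above the unstarred GAP43 (44.5%), STMN4 (56.2%) and CAMK2B (64.5%).

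Levels of different genes were set side by side per length, as CPM per kilobase of exon. At 1 µM VGF stood at 1220 ± 88.7 (SD, n = 3), followed by STMN3 at 25.9 ± 3.62, SNCB at 25.8 ± 1.97, SYN1 at 20.9 ± 3.92 and INA at 19.6 ± 1.64. Neighbours among the last 4 did not differ by more than the sum of their SDs. At the lower end were NEFL at 0.0589, SNAP25 at 0.0515 and SYT4 at 0.0483. The length used joins all annotated exons of a gene, 20369 bases for SNAP25, so its place depends on that choice. In CPM at 1 µM SNAP25 stood at 1.05, above NEFL at 0.232 and SYT4 at 0.208. In untreated cells STMN3 (43.5) and NEFH (27.8) led per length, and VGF stood at 2.91.

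Genes of the REST complex were read beside their targets. REST itself was at 62.5, 53.3 and 49.9 CPM in untreated cells, at 39.8, 45.3 and 25.3 CPM at 0.15 µM, at 34.2, 46.5 and 54.2 CPM at 0.25 µM, at 31.0, 35.1 and 37.4 CPM at 0.5 µM and at 32.7, 31.4 and 33.2 CPM at 1 µM. The libraries at 0.25 µM overlapped the untreated ones and those of the other doses did not. REST had log2 fold changes of -0.59 ± 0.19 (SE), -0.30 ± 0.19, -0.68 ± 0.19 and -0.77 ± 0.19 in dose order (edgeR adjusted p = 0.0159, 0.188, 0.00451 and 0.00177). By library totals it was -0.22, 0.24, -0.29 and -0.42 and by TMM computed on genes of 10 CPM or more -0.33, 0.13, -0.26 and -0.39, none of them called, and the sign at 0.25 µM turned. Of 18 genes of the complex, 2 were higher and 6 lower at 0.15 µM and 5 higher and 8 lower at 1 µM, with medians of -0.16 and -0.04. With library totals these counts became 4 and 0, and 9 and 5. The lysine demethylase KDM1A fell from 347 ± 12.8 CPM (SD, n = 3) to 229 ± 22.0 CPM at 1 µM, and GSE1 from 646 ± 49.8 to 295 ± 54.3 CPM, and KDM5C from 270 ± 5.45 to 196 ± 8.89 CPM. HDAC2, named here after its value was seen, fell from 333 ± 13.4 to 103 ± 3.95 CPM, a log2 fold change of -1.70 ± 0.13 (SE), the most negative of the 18. HDAC1 had 251 ± 13.3 and 320 ± 5.36 CPM and was not called at 1 µM (edgeR adjusted p = 0.08).

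Another 60 synaptic and neuronal genes, not among the 39, served to see how far the pattern reached. At 0.15 µM 40 were higher and 3 lower and at 1 µM 40 were higher and 3 lower, with median log2 fold changes of 2.81 and 4.24 (2.59 and 4.23 with genes of no untreated count at their bound). Of the 40 that were silent in untreated cells, 40%, 50%, 52.5% and 52.5% were switched on in dose order. L1CAM, an axonal adhesion molecule, rose from 0.106 ± 0.0495 CPM (SD, n = 3) to 125 ± 7.79 CPM at 0.15 µM and 137 ± 21.7 CPM at 1 µM. UNC13B, a relative of the priming factor UNC13A, rose from 47.5 ± 3.71 to 103 ± 9.88 CPM at 1 µM. MAP1B, a microtubule protein, was at 108 ± 16.5 CPM in untreated cells, at 212 ± 32.0 CPM at 0.15 µM and at 95.7 ± 11.3 CPM at 1 µM.

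Of 18 neuronal transcription factors, 7 were higher and 0 lower at 0.15 µM, and 8 and 0 at 1 µM. LMX1B, at 0 CPM in untreated cells, reached 9.03 ± 1.76 CPM (SD, n = 3) at 1 µM, and MYT1 went from 0.13 ± 0.0875 to 2.87 ± 0.0657 CPM. POU3F2 (10.7 and 11.0 CPM) and POU4F1 (18.5 and 21.0 CPM), both already expressed, were not called at 1 µM. In 30 broadly expressed relatives of the members, 5 were higher and 9 lower at 0.15 µM and 10 higher and 14 lower at 1 µM, with medians of -0.21 and 0.02. This balance depended on the scaling, since library totals gave 10 higher and 4 lower at 0.15 µM and 14 and 8 at 1 µM (medians 0.15 and 0.38). Among them VIM went from 522 ± 68.0 to 1170 ± 162 CPM at 1 µM and STMN1 from 587 ± 70.4 to 454 ± 48.9 CPM. In contrast to STMN1, which is the stathmin of dividing cells, STMN2 was absent from the untreated counts.

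Silent genes of other lineages were read by the same rule. Of 25 silent muscle genes 12.0%, 16.0%, 16.0% and 20% were switched on in dose order, and of 29 silent liver genes 10.3%, 13.8%, 13.8% and 13.8%. Among 16 silent neuronal transcription factors the shares were 12.5%, 31.2%, 31.2% and 31.2%. Short lists of markers of other cell types reached shares nearer to those of the members: 37.5%, 25.0%, 12.5% and 12.5% of 8 silent glial genes, 25.0%, 25.0%, 50% and 50% of 4 silent epithelial genes, 20%, 40%, 40% and 40% of 5 silent lymphoid genes, and 16.7%, 33.3%, 33.3% and 33.3% of 6 silent fibroblast genes. The 17 silent members stood at 35.3%, 47.1%, 64.7% and 64.7%. Members and lists were chosen with earlier results of these data known, so the shares are descriptions and not independent evidence. The median log2 fold change at 1 µM was 2.26 in the muscle and 2.75 in the liver list (2.23 and 2.66 with bounds), with 16 of 35 and 12 of 35 genes higher. In the liver list C3 rose from 8.86 ± 2.08 to 146 ± 20.5 CPM (SD, n = 3), and AFP fell from 35.5 ± 3.39 to 1.46 ± 0.284 CPM.

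**Figure D5:**
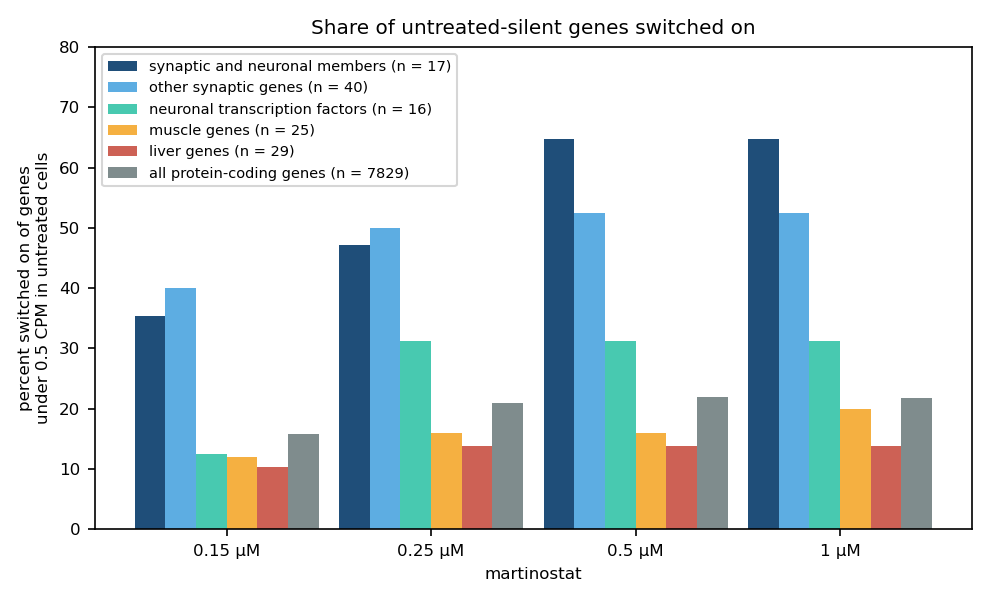
Percent of genes under 0.5 CPM in untreated cells that were switched on (y axis, from 0) at each dose (x axis), for the members, 4 other gene lists and all protein-coding genes; n gives the silent genes of each list. The members go from 35.3% at 0.15 µM to 64.7% at 0.5 and 1 µM, and all protein-coding genes from 15.7% to 21.8%. The members and lists were chosen with earlier results of these data known.

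The labelled cell type was checked on 20 genes of K-562 identity, mostly erythroid, which include the fusion partners BCR and ABL1. HBZ, the embryonic zeta-globin, was at 1050 ± 57.8 CPM (SD, n = 3) in untreated cells and at 84.1 ± 9.65 CPM at 1 µM. Of the 20 genes 1 was higher and 5 lower at 0.15 µM and 1 higher and 16 lower at 1 µM. With library totals 5 were higher and 5 lower at 0.15 µM, and the median there went from -0.14 to 0.23, while at 1 µM 1 was higher and 13 lower. The summed level of these genes was 6150 to 6570 CPM in untreated libraries, 4000 to 4340 CPM at 0.15 µM, 2480 to 3100 CPM at 0.25 µM, 1390 to 2080 CPM at 0.5 µM and 1900 to 2050 CPM at 1 µM. Markers of other cell types moved as well. Of 8 epithelial markers 5 were higher and 1 lower at 1 µM, with summed levels of 1590 to 1730 CPM in untreated libraries and 4740 to 7270 CPM at 1 µM, KRT5 and KRT14 at 0 before treatment, and EPCAM falling from 141 to 20.5 CPM. Of 8 fibroblast markers 3 were higher and 1 lower, with sums of 21.9 to 25.6 and 307 to 494 CPM, of which COL1A1 held 397 CPM at 1 µM, and COL3A1, LUM and FAP were at 0 in untreated cells. Of 8 glial markers 4 were higher at 0.15 µM and 2 at 1 µM (0.654 to 1.02 CPM untreated, 8.25 to 9.10 CPM at 0.15 µM and 5.02 to 7.31 CPM at 1 µM), led by GFAP at 4.31 CPM, with AQP4, SLC1A2 and MOG among those at 0 in untreated cells, and of 8 lymphoid markers 4 were higher and 1 lower (5.90 to 9.64 and 14.7 to 17.8 CPM, with CD79B, MS4A1 and CD2 at 0 in untreated cells). The part of these changes in the levels of the neuronal genes was not tested.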

How the data were processed

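The authors deposited raw counts of fragments per GENCODE 38 gene for 15 libraries and, per library, FPKM values. Per the labels and the methods of the study, reads were trimmed with Trim Galore 0.6.10 and Trimmomatic, aligned to hg38 with HISAT2 2.2.1, handled with SAMtools 1.21 and counted with featureCounts 1.5.3. The library kit keeps strand, and the strand setting of the counting is not given in the sources used here. The FPKM deposited by the authors used the genomic span as gene length in 89.7% of 22384 genes and were not analysed further. Symbols, exons and positions came from GENCODE 44.

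Counts were fitted with edgeR 4.0.16 in R 4.3.3. After filterByExpr, 23711 genes entered 1 quasi-likelihood fit of all 15 libraries (TMM scaling, group as the only term, 10 residual degrees of freedom, robust), and Benjamini-Hochberg adjustment ran over all of them. SE is the absolute log2 fold change divided by the square root of F. Lower bounds used a floor of 3 counts over the untreated group, and counting intervals are exact at 95% and cover counting error only. The scripts were tested on simulated data. Every pair of libraries within a group differed by more than sampling noise (chi-square over its degrees of freedom at least 6.49).

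Values were given for members switched on at any dose, lower than untreated or lower at 1 than at 0.15 µM, or at 10 CPM or more untreated; of other lists, REST and the 4 genes with the highest mean. Single members outside this rule (among them VGF, SYN1, SHANK1, NRXN2, STX1A, SYT1, SYT7, MAPT and INA) were named after their values were seen. Values of some genes of the other lists are not reported here. The members and lists were chosen with earlier results of these data known. Labels do not pair replicates. Correlations of same-numbered deviations from the group means were 0.266 to 0.579 between 0.25 and 0.5 µM and -0.0663 to 0.0918 elsewhere. The value of 0.579 was that of replicate 3, which stood apart at both doses. Deviations cancel out within a group, so a shift shared by these libraries also raises the correlations of replicates 1 and 2. Pairing by number is therefore not shown. Alternatives were RLE, library totals, other TMM factors, other filters and limits, DESeq2 1.42.0, a replicate block, fits of the compared libraries alone and leaving out each library. Chosen after seeing the data were leaving out replicate 3 at both 0.25 and 0.5 µM, and the block on the compared libraries. RefSeq promoters (GRCh38.p14) were searched for motifs, 250 bases before to 50 after each start.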

Additional observations from a re-analysis of the deposited data

How the results depend on the processing

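Of 148 member-by-dose comparisons with untreated cells, edgeR called 129, and 126 of these held under all 24 alternatives. These include the 16 tested members for which the untreated libraries did not all reach the filter. Their calls were partly fixed by the filter, so these counts are descriptions. The matching share over all genes was not computed. The others were VAMP2 and NEFH at 0.15 µM and SCG2 at 1 µM. No call reversed, and 9 uncalled results were called under some alternative (SYT1 at 3 doses, VAMP2 at 0.25 µM, DLG4 and BSN at 2 doses each, SNCG at 1 µM). A limit of 1 CPM on the untreated mean gave 10 members switched on at 0.15 µM, and a required level of 5 CPM gave 2, 2, 4 and 4 in dose order, against 6, 8, 11 and 11. Between 0.25 and 0.5 µM lower members numbered 3, against 5 with library totals, 1 with only the libraries compared, 6 with a replicate block on those libraries and 1 to 4 with a library left out (1 without replicate 2 at 0.5 µM). Between 0.15 and 0.25 µM lower members numbered 0, against 2 with no filter, 1 without replicate 3 at both 0.25 and 0.5 µM and 0 to 3 with a library left out (3 without replicate 3 at 0.5 µM). Higher members at this step numbered 7, against 2 to 7 with a library left out, 8 with library totals, 9 with TMM computed on genes of 10 CPM or more and 8 without replicate 3 at both 0.25 and 0.5 µM. The planned replicate block over all libraries gave 31, 31, 29 and 29 higher members in dose order. It lost NEFH at 0.15 µM (-0.48) and gained VAMP2 at 0.25 µM (0.47), and it changed no other member call against untreated cells. Causes of these differences were not tested. Depth limits members under 1 CPM, and 3 libraries a group cannot show small differences.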
